A study of Mus musculus with 9 samples.

Results

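The presynaptic vesicle and release machinery was described here as 41 genes of synaptic vesicles, their fusion, their recycling and the active zone, the patch of presynaptic membrane at which vesicles are released. The members were the probe sets whose platform gene symbol is 1 of these 41 genes. A total of 35 genes had such a probe set, 75 probe sets in all, among the 12393 genes named on the array. No probe set carried the symbol of Sv2b, Rims1, Synj1, Slc17a7, Nrxn2 or Nrxn3 in the annotation used, so that these 6 members were not analysed here. Of the 35, 33 passed the filter on dim probe sets, against 8503 genes in all, and Bsn and Rph3a did not.

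RNA came from layer IV of the barrel cortex, the somatosensory area in which thalamic axons form a whisker map, cut out by laser from C57BL/6 mice at postnatal day 5. They carried a Gap43 knockout allele on neither chromosome (wild type, WT), on 1 (HZ) or on both (KO), with no other allele or treatment named, and each genotype had 3 mice with 1 array each, 9 arrays in all. The labels do not say which part of Gap43 the allele lacks. The series title names synaptogenesis genes and barrel map genes in HZ and KO mice as its subject, and 3 arrays a genotype limit the precision of every value.

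Neurotransmitter is loaded into vesicles by transporters, and the vesicles are tethered and primed at the active zone by scaffold proteins such as Bassoon, Piccolo and Munc13. They fuse when the SNARE proteins VAMP2, SNAP-25 and syntaxin 1 assemble, with synaptotagmin 1 as the calcium sensor, and their membrane is then retrieved by clathrin, dynamin and partner proteins. GAP-43 is a growth cone and presynaptic membrane protein phosphorylated by protein kinase C. In layer IV the first postnatal week is the time at which thalamic synapses are formed. Cell bodies of the thalamic neurons that send axons to layer IV lie outside the dissected tissue. In bulk tissue, fewer cells of a type and less RNA per cell cannot be told apart.

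Promoters of 4 members are shown because Syn2, Syt1 and Rab3c had the smallest p-values between KO and WT, and Syn1, a paralogue of Syn2, had the smallest p of the members below 0 between KO and HZ. Each is the stretch of 250 bases before the RefSeq transcription start (GRCm38.p6), 5′ to 3′ on the gene's strand, and for Syn2 and Syt1 it is the first of 2 listed starts. Capitals mark exact matches, on either strand, to TGACG (core of the cyclic AMP response element), CAGCTG (an E-box), GGACAG (part of the RE1 element bound by REST) and GGGCGG (a GC box), and matches of different motifs may overlap.
Syn1 (chrX:20920919-20921168, minus strand): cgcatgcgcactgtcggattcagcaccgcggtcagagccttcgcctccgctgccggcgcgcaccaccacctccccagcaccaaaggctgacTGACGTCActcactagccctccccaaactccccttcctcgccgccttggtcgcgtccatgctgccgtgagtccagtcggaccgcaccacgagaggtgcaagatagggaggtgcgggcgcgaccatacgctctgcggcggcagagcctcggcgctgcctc
Syn2 (chr6:115134652-115134901, plus strand): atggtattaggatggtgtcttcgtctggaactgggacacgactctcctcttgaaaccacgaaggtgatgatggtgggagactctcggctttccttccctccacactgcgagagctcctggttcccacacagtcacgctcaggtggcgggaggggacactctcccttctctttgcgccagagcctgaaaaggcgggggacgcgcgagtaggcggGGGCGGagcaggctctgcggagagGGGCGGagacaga
Syt1 (chr10:109010976-109011225, minus strand): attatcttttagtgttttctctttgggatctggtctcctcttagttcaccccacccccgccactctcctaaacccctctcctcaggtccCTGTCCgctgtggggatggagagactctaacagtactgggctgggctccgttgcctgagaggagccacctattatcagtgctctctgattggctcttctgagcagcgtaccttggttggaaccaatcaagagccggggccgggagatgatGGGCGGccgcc
Rab3c (chr13:110280207-110280456, minus strand): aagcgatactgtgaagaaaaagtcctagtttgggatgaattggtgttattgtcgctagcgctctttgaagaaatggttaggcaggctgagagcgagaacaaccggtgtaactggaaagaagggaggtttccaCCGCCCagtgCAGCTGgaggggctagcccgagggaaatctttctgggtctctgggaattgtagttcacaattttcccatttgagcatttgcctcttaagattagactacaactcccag

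The Syn1 stretch held TGACG on both strands, overlapping as 1 palindromic element, and no exact match to the other 3 motifs. GGACAG is only part of the RE1 element, so the lack of an exact match does not show that Syn1 lacks that element. In Syn2 there were 2 GC boxes, in Syt1 a GC box and GGACAG, and in Rab3c a GC box and an E-box. Of the second listed starts, not shown, that of Syt1 held an E-box and no other match, and that of Syn2 held none of the motifs. RefSeq promoters were found for 33 members (46 starts; this set of 33 is not the 33 genes tested). CAGCTG was present in 23.9% of the 46 member promoters, in 11.3% of 8926 promoters of the genes tested and in 13.0% of all 32851. The shares of the other motifs were nearer to those of the genes tested. Of member promoters 54.3% held GGGCGG, against 57.0% of those and 32.7% of all. TGACG was held by 23.9%, against 26.1% and 17.8%, and GGACAG by 21.7%, against 19.6% and 18.7%. The median GC content was 59.4% in member promoters, 59.6% in those of the genes tested and 52.4% in all. A match is a description of the letters and not evidence of binding.

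Gap43 itself was checked first. MAS5 signals of 7089, 4746 and 4294 were read in WT, 5015, 5039 and 4389 in HZ and 979, 1930 and 1299 in KO, so that KO lay below both other genotypes. It fell 3.85-fold between KO and WT (limma adjusted p = 0.0173) and 3.53-fold between KO and HZ (adjusted p = 0.0362), whereas HZ against WT gave a log2 change of -0.13 ± 0.23 (SE, adjusted p = 0.915). The KO against WT call ended without WT 1 (adjusted p = 0.0696), WT 2 (0.0502), HZ 2 (0.0548) or KO 3 (0.0698), and without the filter (0.204) or the intensity trend (0.0824). That against HZ ended when WT 2 (0.0956), KO 1 (0.0513), KO 3 (0.0619) or any HZ array (0.0661 to 0.168) was left out. It also ended with 5 other settings, at adjusted p = 0.0538 with the Gapdh ratio as a term, 0.0681 with arrays set to 1 median, 0.0761 with quantile normalization, 0.144 without the trend and 0.287 without the filter. Of 9 markers of excitatory cortical neurons 7 passed the filter, with Camk2a below it. Markers of other cell types were also read, and those below the filter were Slc1a2 among astrocyte, Pecam1 among endothelial and Aif1, C1qa, Cx3cr1 and Itgam among microglial markers. The ratio of 3′ to 5′ Gapdh signal, a measure that RNA integrity and amplification can move, was 27.9 on HZ 2 and between 11.5 and 19.5 on the other 8 arrays.

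No presynaptic member passed the adjusted threshold of 0.05 in any of the 3 comparisons (limma with Benjamini-Hochberg adjustment over 13576 probe sets). That threshold was passed by 0.0118% of genes and 0.00737% of probe sets in KO against WT and again in KO against HZ, the single gene being Gap43 both times, and by 0% in HZ against WT. The smallest adjusted p of a member was 0.537 between KO and WT, 0.789 between HZ and WT and 0.575 between KO and HZ. At an unadjusted p under 0.05 there were 3 members between KO and WT (Syn2, Rab3c and Syt1), or 9.09% of 33, beside 8.15% of all genes (4.41% higher and 3.74% lower). Between HZ and WT there were 2 (Syn2 and Sv2a), or 6.06% beside 6.03% (4.09% higher and 1.94% lower). Between KO and HZ there were 3 (Doc2b, Sypl and Syn1), or 9.09% beside 7.64% (3.56% higher and 4.08% lower). Each share was near its background.

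The count of members at an unadjusted p under 0.05 moved with single arrays, and the share of all genes in the same fit is given beside each. Between KO and WT it was 5 without WT 1 (6.36% of all genes) and 1, Syn2, without WT 2 (10.4%). For HZ against WT it was 1 without HZ 2, which was Doc2b and not Syn2 or Sv2a (5.97%), and 1, Syn2, without HZ 3 (4.6%). For KO against HZ it was 1, Doc2b, both without HZ 2 (7.36%) and without KO 2 (6.17%).

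**Figure D1:**
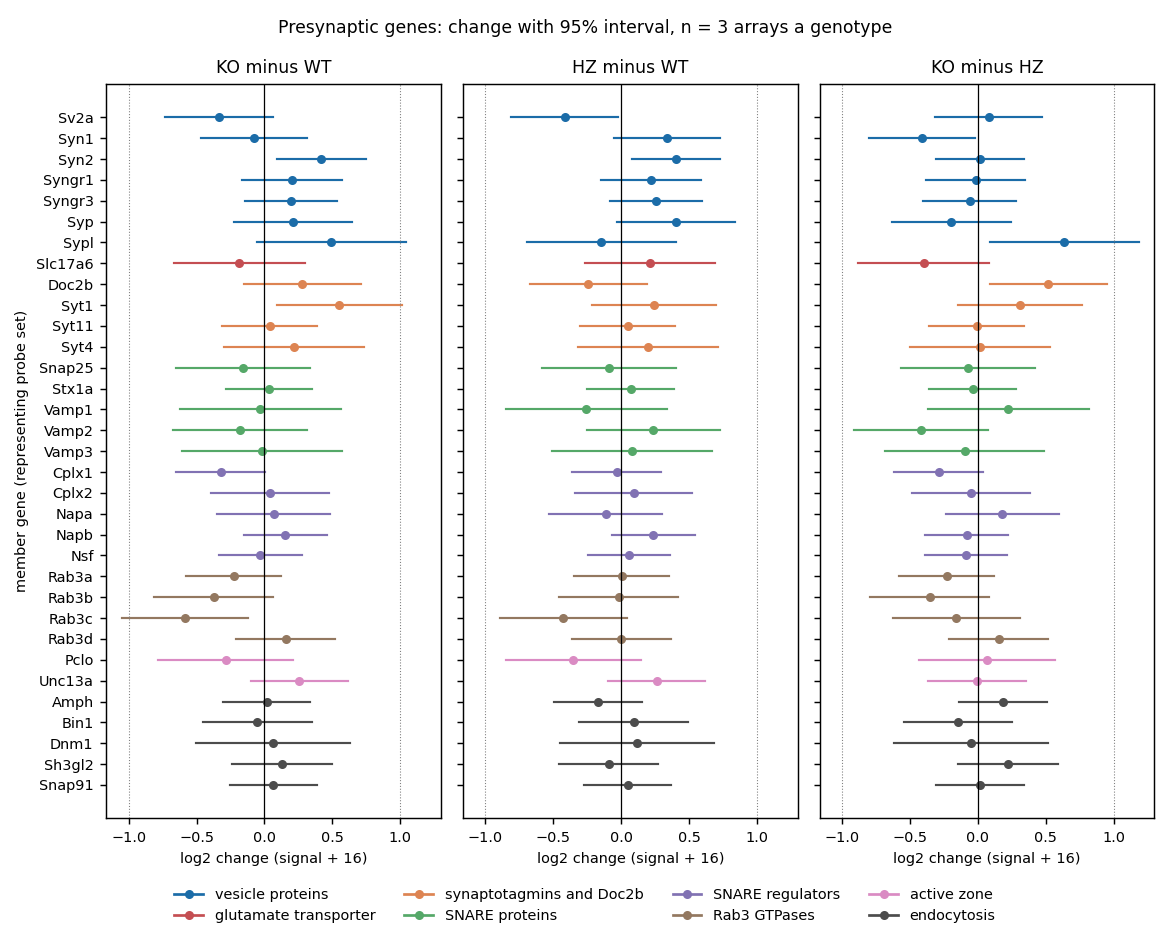
Log2 change of the 33 tested presynaptic genes (x axis, on the log2(signal + 16) scale) with unadjusted 95% intervals in 3 comparisons, n = 3 arrays a genotype; rows are genes coloured by role and dotted lines mark a 2-fold change. Most intervals cross 0, and in KO minus WT 30 of the 33 lie within the dotted lines.

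Changes of the members were small and of mixed sign. Between KO and WT, 19 members were above 0 and 14 below, where 53.6% of all 8503 genes were above, and the median log2 change was 0.04 beside 0.02 for all genes. Between HZ and WT 21 were above and 12 below (56.7% of all genes above), with a median of 0.06 beside 0.04. Between KO and HZ 13 were above and 20 below (45.1% of all genes above), with a median of -0.04 beside -0.03. The median size of a change, sign disregarded, was 0.18, 0.17 and 0.15 in the members, beside 0.16, 0.15 and 0.15 in all genes. Without WT 1 the KO against WT median was -0.02, and with array weights the KO against HZ median was 0.01. HZ against WT and KO against WT share their WT arrays, and so their values stand side by side only.

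Each interval covers 1 gene, read by the probe set that stood for it, and the intervals do not bound the members jointly. Other tested probe sets of members could reach further, such as the dimmest of Syt11, which reached -1.15 in KO against WT. In KO against WT the unadjusted 95% interval lay within a 2-fold change either way for 30 of 33 members, 90.9%, beside 92.7% of all genes. The exceptions were Sypl, whose interval reached 1.04, Syt1, whose interval reached 1.01, and Rab3c, whose interval reached -1.05. All 33 intervals lay within 2-fold in HZ against WT, beside 93.7% of all genes, and 32 did in KO against HZ, beside 92.7%, with Sypl reaching 1.19. Within 1.5-fold lay 15, 15 and 18 members in the same order, or 45.5%, 45.5% and 54.5%, beside 49.9%, 50.5% and 51.6% of all genes. Changes inside these bounds are not addressed by the intervals.

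**Figure D2:**
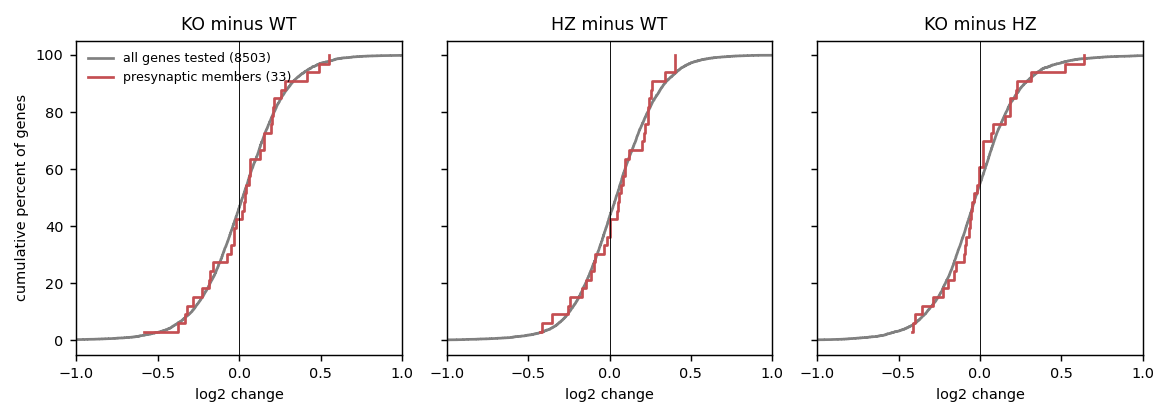
Cumulative percent of genes (y axis) by log2 change (x axis, shown from -1 to 1) for the 33 presynaptic members and all 8503 genes tested, in 3 comparisons. The curves run close together, with medians of 0.04 and 0.02 in KO minus WT, 0.06 and 0.04 in HZ minus WT, and -0.04 and -0.03 in KO minus HZ.

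Synaptic vesicle proteins held the member with the smallest p against WT in both other genotypes. Syn2 encodes synapsin II, a phosphoprotein that clusters vesicles. Its signal was 422, 466 and 407 on the WT arrays, 573, 623 and 531 on the HZ arrays and 535, 615 and 598 on the KO arrays. All HZ and all KO arrays lay above all WT arrays, and HZ and KO overlapped. The log2 difference was 0.42 ± 0.15 (SE) for KO against WT (limma adjusted p = 0.537), and 0.40 ± 0.15 for HZ against WT (limma adjusted p = 0.789). The WT arrays are the same in both. A dimmer Syn2 probe set read the other way, at 143, 120 and 125 in WT, 89.1, 150 and 109 in HZ and 105, 113 and 126 in KO, and its log2 difference was -0.16 ± 0.22 against WT in KO. Averaging the Syn2 probe sets gave 0.13 for KO against WT and 0.12 for HZ against WT.

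Syn1, which encodes synapsin I, read 760, 932 and 786 in WT, 988, 1270 and 912 in HZ and 935, 768 and 663 in KO. The log2 difference was -0.41 ± 0.18 for KO against HZ (limma adjusted p = 0.623), 0.34 ± 0.18 for HZ minus WT and -0.07 ± 0.18 for KO minus WT. The highest Syn1 reading was that of HZ 2, and KO and HZ overlapped. Without HZ 2 the KO against HZ value was -0.28, and with the Gapdh ratio as a term it was -0.42.

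Synaptophysin (Syp), the abundant membrane protein of synaptic vesicles, had the same high array. It read 460, 628 and 487 in WT, 602, 891 and 621 in HZ and 701, 635 and 494 in KO, with overlap between all genotypes. The log2 difference was 0.40 ± 0.20 for HZ against WT (adjusted p = 0.79), and without HZ 2 it was 0.23. The second probe set gave 0.45 ± 0.24, and there HZ 2, at 125, was the lowest HZ array.

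Sypl, a synaptophysin-like protein found in many tissues besides neurons, read 948, 501 and 611 in WT, 625, 473 and 719 in HZ and 973, 1208 and 703 in KO. It is read by a probe set of the s type, whose probes can match several transcripts. KO minus HZ was 0.64 ± 0.25 in log2 (limma adjusted p = 0.59), and a further probe set gave 0.56 ± 0.22, while KO 3 lay within the HZ range on the first. Its range over the 9 arrays was wide among the members, next to that of Vamp3.

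Sv2a, the vesicle glycoprotein that is the binding site of levetiracetam, read 1074, 1467 and 1026 in WT, 1010, 912 and 728 in HZ and 905, 848 and 1038 in KO. All HZ arrays lay below all WT arrays, by little, and the log2 difference was -0.42 ± 0.18 (limma adjusted p = 0.789). Without WT 2, the array of the highest reading, it was -0.26. For KO against WT Sv2a gave -0.34 ± 0.18, and -0.18 without WT 2.

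The synaptogyrins, vesicle membrane proteins of the synaptophysin type, were both above 0 against WT. Syngr3 read from 761 to 871 in WT and from 876 to 1069 in HZ, without overlap (log2 difference 0.26 ± 0.16), and from 825 to 1087 in KO. Syngr1 gave 0.20 ± 0.17 for KO against WT and 0.22 ± 0.17 for HZ against WT, with overlap in both, and 0.04 and 0.06 without WT 3. Slc17a6, which encodes the vesicular glutamate transporter VGLUT2, typical of thalamic neurons, read 2146, 1632 and 2901 in WT, 2098, 2599 and 2911 in HZ and 2053, 2308 and 1453 in KO. Its differences were -0.19 ± 0.22 for KO minus WT and -0.40 ± 0.22 for KO minus HZ. The first was 0.02 without WT 3, 0.01 without KO 3 and -0.39 without WT 2, and the second was -0.21 without KO 3. On the second Slc17a6 probe set the readings were 825, 434 and 881 in WT, 594, 377 and 557 in HZ and 478, 569 and 497 in KO. WT 2 was the lowest WT array on both. This probe set gave -0.40 ± 0.25 for KO minus WT and 0.04 ± 0.25 for KO minus HZ.

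**Figure D3:**
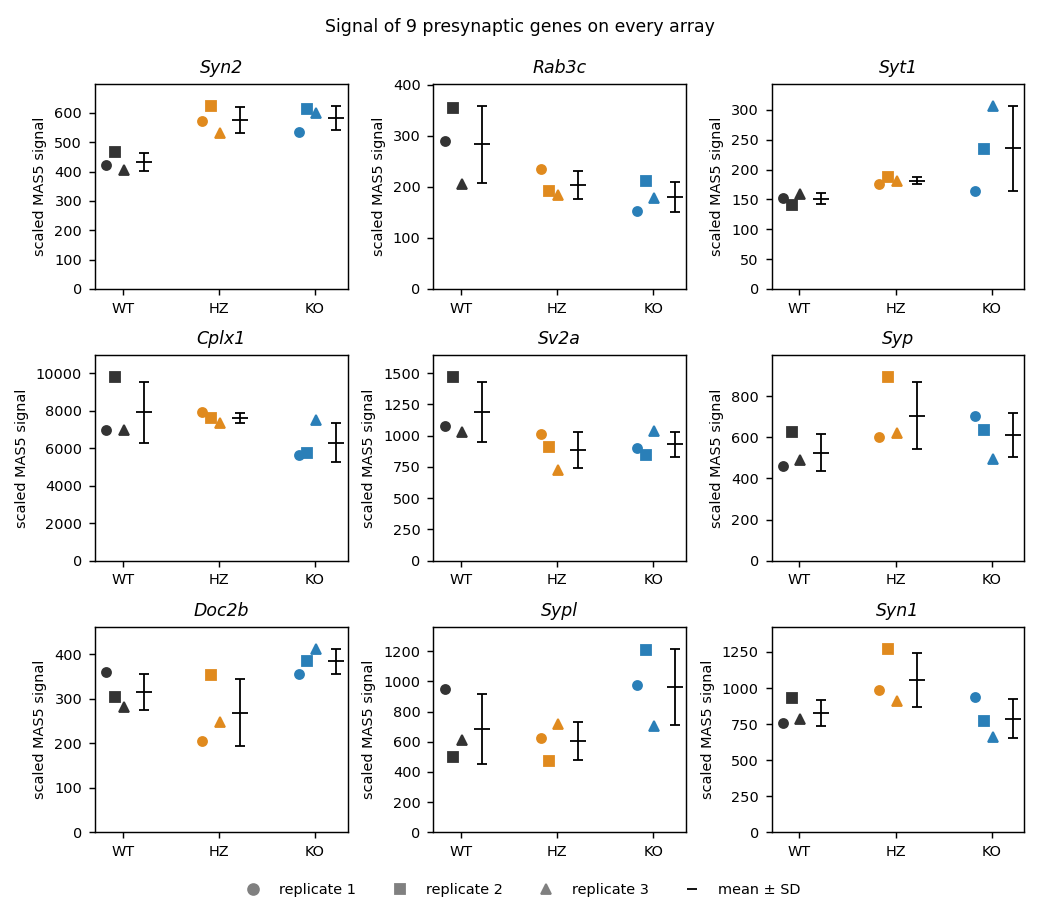
Scaled MAS5 signal (y axis, from 0) of 9 presynaptic genes on each array, by genotype; symbols are replicates 1 to 3 and bars are the mean ± SD of 3 arrays. Syn2 in WT (407 to 466) lies below HZ (531 to 623) and KO (535 to 615), while most other genes overlap between genotypes.

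Of the synaptotagmins and Doc2b, none passed the adjusted threshold, and all 4 were above 0 in KO against WT (median log2 change 0.25), where 53.6% of all genes were above 0. That count rested on single arrays, since Syt4 was at -0.05 without WT 2, and Syt11 at -0.02 without WT 1, -0.05 without WT 3 and -0.08 without KO 1. With the Gapdh ratio as a term Syt11 was at -0.01, and averaged probe sets put it at -0.16. Syt1 encodes the calcium sensor of fast transmitter release. Its signal was 153, 141 and 159 in WT, 175, 187 and 181 in HZ and 165, 235 and 307 in KO. All 3 KO arrays lay above all 3 WT arrays, KO 1 by little. The log2 difference was 0.55 ± 0.21 for KO against WT (limma adjusted p = 0.557), and it was 0.35 without KO 3 and 0.77 without KO 1. The other Syt1 probe set read 157, 179 and 138 in WT, 159, 162 and 116 in HZ and 97.9, 94 and 236 in KO. It gave -0.24 ± 0.29, with KO 3 again the highest array, and the average of the probe sets gave 0.16. Both Syt1 probe sets were dim, the lowest mean signal kept by the filter being 118.

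Doc2b, a C2-domain protein that binds calcium and takes part in spontaneous release, read 359, 303 and 281 in WT, 205, 352 and 248 in HZ and 355, 385 and 410 in KO. All KO arrays lay above all HZ arrays, the gap between HZ 2 and KO 1 being small. KO minus HZ was 0.52 ± 0.20 in log2 (limma adjusted p = 0.575), 0.36 without HZ 1 and 0.72 without HZ 2. Doc2b was the 1 member of 33 without overlap between KO and HZ, 3.03%, beside 14.5% of all genes (6.47% higher and 8.07% lower).

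Syt4, a synaptotagmin with weak calcium binding that is induced by activity, spread widely within each genotype. It read 2330, 1291 and 2211 in WT, 1874, 2776 and 1940 in HZ and 1834, 2804 and 2035 in KO. The second probe set read 2580, 1316 and 2543, then 1916, 3172 and 1690, then 1290, 2309 and 2276. On both, WT 2 was the lowest WT array and HZ 2 the highest HZ array, and KO against WT was 0.22 ± 0.24 and -0.12 ± 0.30. Syt11, which lacks calcium binding, read 2728, 3571 and 2607 in WT, 3098, 3385 and 2671 in HZ and 3563, 2837 and 2721 in KO. These readings come from a probe set of the x type, whose probes can match other transcripts. The 3 Syt11 probe sets gave 0.04 ± 0.16, -0.02 ± 0.18 and, on the dimmest, -0.51 ± 0.30 for KO against WT. The dimmest read 215, 282 and 132 in WT and 105, 130 and 184 in KO.

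The SNARE proteins, which form the fusion complex, gave 5 tested members. In log2 difference they ranged from -0.18 to 0.03 in KO against WT, from -0.26 to 0.24 in HZ against WT and from -0.42 to 0.23 in KO against HZ, where Vamp2 was the lowest of all 33 members. Snap25, the SNAP-25 gene of the plasma membrane SNARE, read 5720, 5065 and 5652 in WT, 5783, 4998 and 4695 in HZ and 3005, 6111 and 6393 in KO. KO 1 alone was low, the other KO arrays being the highest of all 9. The log2 difference of Snap25 was -0.16 ± 0.23 (adjusted p = 0.891) and 0.19 without KO 1. Stx1a, which encodes syntaxin 1A, read 7999, 12345 and 9065 in WT, 9087, 11366 and 10031 in HZ and 9437, 9897 and 10253 in KO, a log2 difference of 0.03 ± 0.15. This is a probe set of the x type, whose probes can match other transcripts. The second Stx1a probe set was much dimmer, at 623, 884 and 744 in WT, 858, 1246 and 827 in HZ and 967, 871 and 698 in KO. It gave 0.17 ± 0.20 for KO against WT and 0.36 ± 0.20 for HZ against WT, where the first gave 0.07 ± 0.15.

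Vamp2, the vesicle SNARE of neurons, read 685, 1150 and 1056 in WT, 864, 1316 and 1211 in HZ and 1010, 825 and 680 in KO. Its log2 differences were -0.18 ± 0.23 for KO minus WT and -0.42 ± 0.23 for KO minus HZ (adjusted p = 0.706), with overlap in both. A dim Vamp2 probe set below the filter read 48.9, 59.1 and 100 in WT and 141, 104 and 118 in KO, the other way, with 0.72 ± 0.28 when no filter was used (adjusted p = 0.656). Vamp3, which encodes the widely expressed cellubrevin, had 4 tested probe sets that ran from -0.24 to 0.15 for KO against WT. The brightest, of the x type, read 856, 1176 and 999 in WT, 892, 721 and 1846 in HZ and 1041, 935 and 995 in KO. Its HZ 3 reading was not shared by the next, also of the x type, which read 895, 547 and 921 in HZ. Vamp1, a related vesicle SNARE, read 142, 156 and 124 in WT, 172, 64.2 and 132 in HZ and 146, 133 and 131 in KO, with HZ 2 apart.

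Complexins bind the assembled SNARE complex, and NSF with its SNAP adaptors takes it apart after fusion. Cplx1, complexin 1, read 6951, 9776 and 6993 in WT, 7901, 7617 and 7365 in HZ and 5631, 5758 and 7476 in KO. KO 1 and KO 2 lay below every WT and HZ array, while KO 3 lay among them. KO minus WT was -0.32 ± 0.15 in log2 (limma adjusted p = 0.633) and -0.29 ± 0.15 for KO against HZ, and without WT 2 the first was -0.16. A second probe set gave -0.27 ± 0.15, from 2736, 3170 and 2380 in WT and 1948, 2367 and 2530 in KO, and the dimmest gave 0.12 ± 0.17, from 304, 392 and 358 in WT and 407, 342 and 398 in KO. Cplx2, complexin 2, gave 0.04 ± 0.20.

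Nsf read 2988, 3745 and 3284 in WT, 3951, 3361 and 3132 in HZ and 3202, 3014 and 3578 in KO. The log2 difference for KO against WT was -0.03 ± 0.14 with a 1.32-fold range over the 9 arrays, the narrowest of the 33 members. On its second probe set KO 1 was low, with 570, 875 and 1015 in KO and 1011, 894 and 1028 in WT.

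Napb, the beta-SNAP gene of brain, had 5 tested probe sets. The brightest read 1595, 1704 and 1570 in WT, 1782, 2240 and 1761 in HZ and 1745, 1844 and 1835 in KO. HZ and KO each lay above WT without overlap, with small log2 differences of 0.24 ± 0.14 and 0.15 ± 0.14. The dimmest, 131, 98.9 and 113 in WT and 216, 142 and 180 in HZ, gave 0.57 ± 0.21 for HZ against WT (adjusted p = 0.789), and another gave -0.12 ± 0.16. For KO against WT the 5 ran from -0.07 to 0.34. Napa, the alpha-SNAP gene, read 838, 1232 and 768 in WT, 942, 761 and 870 in HZ and 1085, 838 and 1006 in KO. Its probe sets gave 0.07 ± 0.19 and -0.02 ± 0.20 for KO against WT.

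Rab3 proteins are GTPases that tether vesicles before release, and 3 of the 4 tested Rab3 genes were below 0 in KO against WT, where 53.6% of all genes were above 0. Rab3c read 290, 355 and 205 in WT, 234, 191 and 184 in HZ and 153, 210 and 178 in KO. WT 3 lay within the HZ range and below KO 2, so the genotypes overlapped. KO minus WT was -0.59 ± 0.22 in log2 (limma adjusted p = 0.537) and -0.43 ± 0.22 for HZ against WT. It was -0.42 for KO against WT without WT 2 and -0.79 without WT 3, and the second probe set gave -0.30 ± 0.20 from 172, 194 and 128 in WT and 137, 119 and 132 in KO. For HZ against WT the Rab3c value was -0.26 without WT 2 and -0.21 with averaged probe sets, the second probe set reading 145, 161 and 185 in HZ with a log2 difference next to 0.

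Rab3a, the main Rab3 of brain synapses, read 1205, 1399 and 1228 in WT, 1174, 1566 and 1135 in HZ and 984, 1140 and 1146 in KO. All KO arrays lay below all WT arrays, a log2 difference of -0.23 ± 0.16 (adjusted p = 0.76). Rab3b read 379, 305 and 280 in WT, 343, 331 and 275 in HZ and 181, 275 and 286 in KO, with overlap and a difference of -0.37 ± 0.20. KO 1 alone was far from the mean of Rab3b over the arrays, at -0.64 in log2, with KO 2 at -0.07 and KO 3 at -0.02. Rab3d, best known from secretory cells outside the brain, gave 0.16 ± 0.17 on its brightest probe set (522, 561 and 412 in WT, 632, 523 and 509 in KO), and its 4 probe sets ran from -0.12 to 0.16. The Rab3 effector Rph3a (rabphilin) read from 11.4 to 86.2 over the 9 arrays, below the filter.

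At the active zone, Pclo and Unc13a were measured and Bsn was dim. Pclo, which encodes the scaffold Piccolo, read 1541, 1233 and 1454 in WT, 1025, 1146 and 1117 in HZ and 819, 1778 and 1039 in KO. All HZ arrays lay below all WT arrays, whereas KO arrays lay on both sides, and the log2 differences were -0.35 ± 0.23 for HZ minus WT and -0.28 ± 0.23 for KO minus WT. Without KO 2 the Pclo value for KO minus WT was -0.60, with Pclo among the members at an unadjusted p under 0.05 (7.79% of all genes in that fit), and without KO 1 it was -0.04. Averaged over its probe sets Pclo was at 0.01 against WT in both genotypes. The dimmer probe set read 171, 140 and 174 in WT, 201, 240 and 202 in HZ and 161, 369 and 139 in KO, with HZ above WT without overlap, the opposite order (0.38 ± 0.29). KO 2 was the highest of the 9 arrays on both Pclo probe sets. Unc13a, which encodes the priming factor Munc13-1, read 275, 251 and 241 in WT, 292, 305 and 332 in HZ and 361, 297 and 272 in KO. HZ lay above WT without overlap (0.26 ± 0.17), and KO 3 fell inside the WT range (0.26 ± 0.17 for KO). Bsn, which encodes Bassoon, read from 31.6 to 102 on its brighter probe set, and without the filter its log2 difference was -0.19 ± 0.34 for KO against WT.

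The 5 tested genes of vesicle endocytosis ran in log2 difference from -0.05 to 0.13 in KO against WT, from -0.17 to 0.12 in HZ against WT and from -0.15 to 0.22 in KO against HZ. Dnm1, the neuronal dynamin that cuts vesicles from the membrane, read 865, 1572 and 692 in WT, 929, 1406 and 924 in HZ and 1138, 950 and 1000 in KO, a log2 difference of 0.06 ± 0.26 for KO against WT. WT 2 and HZ 2 were the high arrays, and these also had the highest Gapdh ratios (19.5 and 27.9). With that ratio as a term the Dnm1 difference for KO against WT was -0.05, the opposite sign. Both values are smaller in size than the SE of 0.26 in the main fit. The part of the Gapdh ratio in the Dnm1 readings was not tested. Sh3gl2, endophilin A1, read 2689, 4154 and 3098 in WT, 3419, 2845 and 2930 in HZ and 3047, 3862 and 3863 in KO, and its 3 probe sets ran from -0.10 to 0.13. Snap91, the clathrin assembly protein AP180, Amph, amphiphysin, and Bin1, its relative, gave 0.06 ± 0.15, 0.02 ± 0.15 and -0.05 ± 0.19.

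**Figure D4:**
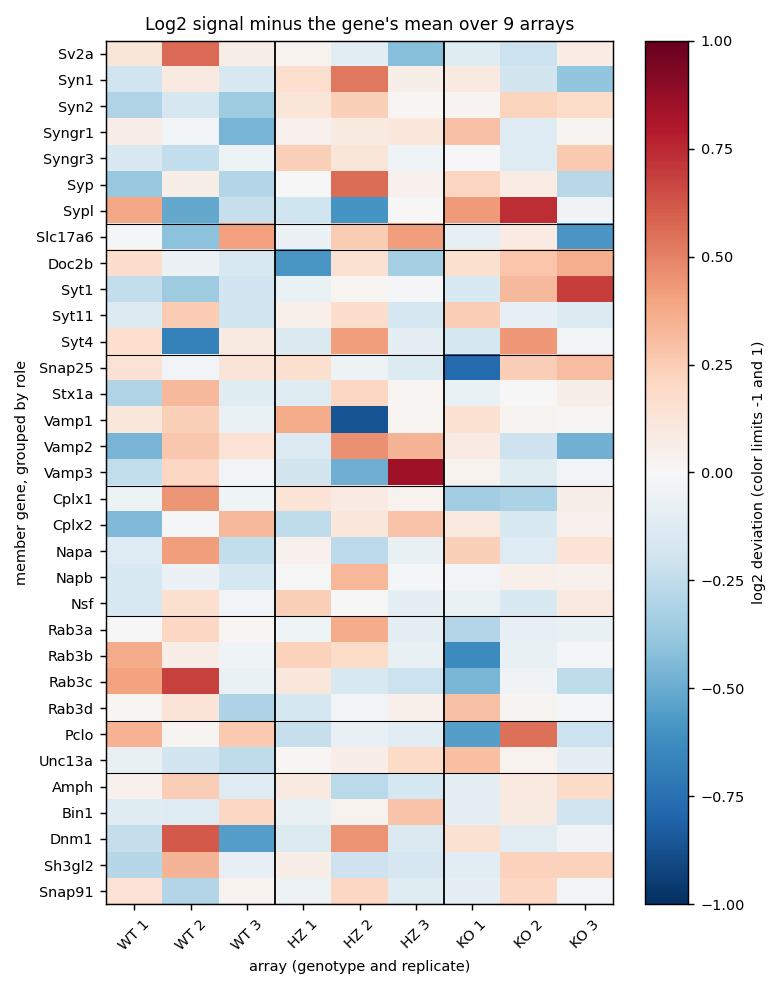
Log2 signal of each of the 33 presynaptic genes (rows, grouped by role) minus its mean over the 9 arrays (columns, by genotype and replicate); red is above and blue below the mean. Single arrays stand apart for some genes, such as KO 1 for Snap25, WT 2 for Syt4 and HZ 3 for Vamp3.

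Groups of arrays without overlap were counted for the members as a description. Between KO and WT 4 of 33 members were apart, with Syn2, Syt1 and Napb above and Rab3a below, or 12.1%, beside 14% of all genes (7.8% higher and 6.21% lower). Between HZ and WT 7 were apart, with Syn2, Syt1, Syngr3, Unc13a and Napb above and Sv2a and Pclo below, or 21.2%, beside 13.3% of all genes (9% higher and 4.29% lower). The largest of these HZ against WT differences was the 1.33-fold of Sv2a.

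Over the 33 members the median spread within a genotype was 0.23 (SD, log2), beside 0.23 for all 8503 genes. The range over the 9 arrays was 1.73-fold at the median, beside 1.66-fold for all genes, and it was widest for Vamp3 at 2.53-fold. That Vamp3 probe set is of the x type, and its HZ 3 reading of 1846 was not shared by the next Vamp3 probe set (921). Arrays differed in how often they held an extreme reading: WT 2 held the highest reading of 9 members and HZ 2 of 7, where WT 1 and WT 3 held that of 1 each. Over all genes WT 2 held the highest reading of 15.9% and HZ 2 of 13%. The median deviation of the members from their own means ran from -0.07 on WT 1 and WT 3 to 0.09 on HZ 2. On WT 2 it was 0.07.

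Of the 33 tested members 18 had at least 2 tested probe sets, and in 11 of these the signs for KO against WT differed: Syn2, Syt1, Syt4, Syt11, Vamp3, Rab3d, Cplx1, Napa, Napb, Sh3gl2 and Pclo. The signs differed in 11 of 18 for HZ against WT and in 9 for KO against HZ. The same share over all genes with several probe sets was not computed, so these counts are not a trait of the members. Some differing signs belong to values within their SE of 0, as with every Napa and Sh3gl2 value for KO against WT. Syn2 and Syt1, with small p-values on their representing probe sets, are among them, whereas both tested Rab3c probe sets and both tested Sypl probe sets kept 1 sign in KO against WT. The representing probe set, that of highest mean, is the one used in all counts above.

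**Figure D5:**
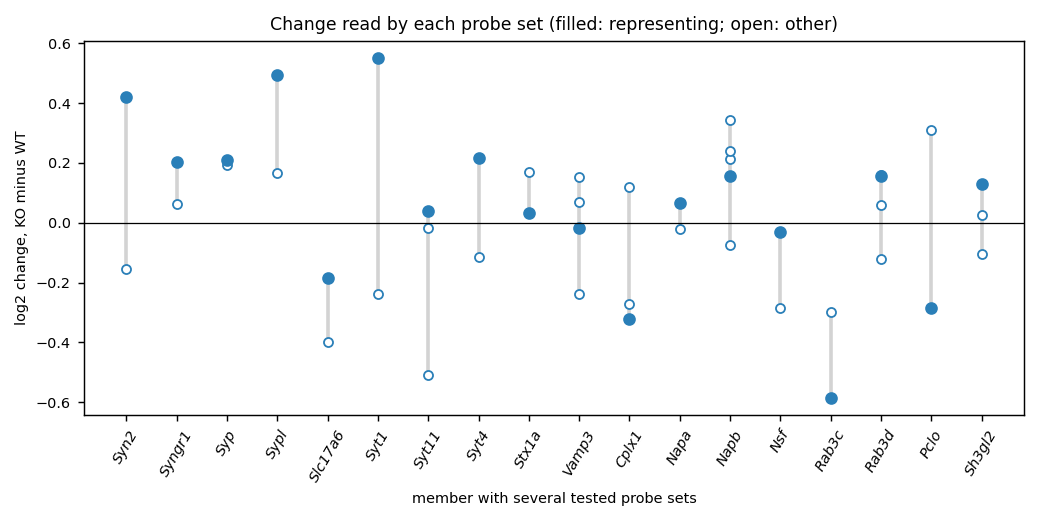
Log2 change, KO minus WT (y axis), read by each tested probe set of the 18 presynaptic genes with several (x axis); filled points are the representing probe set, open points the others, and the grey bar spans them. Bars cross 0 in 11 of the 18 genes.

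A further list of 118 presynaptic genes outside the members, of which 90 had a probe set and 77 were tested, gave no call either (limma, 0 past the adjusted threshold in each comparison). At an unadjusted p under 0.05 there were 4 in KO against WT (2 higher, 2 lower), 6 in HZ against WT (4 higher, 2 lower) and 8 in KO against HZ (3 higher, 5 lower). These were 5.19%, 7.79% and 10.4% of the 77, beside 8.15%, 6.03% and 7.64% of all genes, and the median log2 changes were 0.03 and 0.05 in the first and second and just below 0 in the last. Cacna2d1, an auxiliary subunit of calcium channels, had the smallest p against WT in both genotypes, with log2 differences of -0.45 ± 0.17 in KO (adjusted p = 0.537) and -0.51 ± 0.17 in HZ (adjusted p = 0.789), on shared WT arrays. Next in KO against WT came Ap2a2, a clathrin adaptor subunit, at 0.40 ± 0.18, and Gak, a kinase of clathrin uncoating, at 0.47 ± 0.21. In HZ against WT these were Ap2a1 at 0.54 ± 0.21 and the SNARE Snap29 at 0.77 ± 0.29. Between KO and HZ they were Itsn2, an endocytic scaffold (0.59 ± 0.18, adjusted p = 0.45), Dnm2, the widely expressed dynamin (-0.68 ± 0.27), and Syt5 (-0.44 ± 0.18).

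Marker lists of the cells that the dissected tissue can hold are given beside these results, and none of their genes passed the adjusted threshold. Astrocyte markers, 9 of 10 tested, were below 0 for 7 of 9 in KO against WT (median log2 change -0.38), where 53.6% of all genes were above 0. Of the 9, 6 (66.7%) were at an unadjusted p under 0.05 (limma), beside 8.15% of all genes, with a smallest adjusted p of 0.114. In HZ against WT 8 of 9 astrocyte markers were below 0 (median -0.22), where 56.7% of all genes were above 0. There 1 (11.1%) was at an unadjusted p under 0.05 (limma), beside 6.03% of all genes. The summed signal of astrocyte markers was 25786 to 32145 in WT, 25752 to 26139 in HZ and 20417 to 28968 in KO. The largest part of that sum was Fabp7, at 8798 to 14174 over the 9 arrays. Fabp7 and Gfap were the astrocyte markers above 0 in KO against WT (0.05 ± 0.17 and 0.11 ± 0.24), and Gja1 was the lowest (-1.04 ± 0.16). Neuronal markers that are not presynaptic, 9 of 9 tested, were above 0 for 6 in KO against WT (median 0.14), with a summed signal of 29756 to 36730 in WT, 30030 to 36887 in HZ and 32771 to 38937 in KO. Interneuron markers, 10 of 10 tested, were below 0 for 6 (median -0.19), with 4370 to 7494 in WT, 4886 to 6915 in HZ and 4089 to 6468 in KO. Markers of excitatory cortical neurons, 7 of 9 tested, were above 0 for 5 (median 0.25), with 18217 to 20727 in WT, 20176 to 22173 in HZ and 21062 to 22678 in KO. Most of that sum was Mef2c, at 12200 to 15549 over the 9 arrays. Rorb, the layer IV marker of this list, lay the other way, at 541, 460 and 589 in WT, 709, 518 and 601 in HZ and 325, 356 and 302 in KO. All KO arrays were below all WT and HZ arrays for Rorb (log2 difference from WT -0.66 ± 0.17, limma adjusted p = 0.435), and Cux1, of the upper layers, gave -0.29 ± 0.23. Microglial markers, 4 of 8 tested, were below 0 for all 4 (median -0.37), with 1209 to 2958 in WT, 1196 to 1750 in HZ and 1066 to 1435 in KO. Endothelial and mural markers, 8 of 9 tested, were below 0 for all 8 (median -0.08), with 4138 to 4623 in WT, 4422 to 5116 in HZ and 3531 to 4729 in KO. Oligodendrocyte lineage markers, 7 of 8 tested, were above 0 for 5 (median 0.11), with 5054 to 7194 in WT, 4995 to 6060 in HZ and 3626 to 5338 in KO. The KO sums reached lower but overlapped those of WT and HZ. The markers below 0 were Olig1 (-0.50 ± 0.20) and Cnp (-0.84 ± 0.33), whose highest reading was 3087 on WT 2. Progenitor and cycling markers, 7 of 8 tested, were above 0 for 6 (median 0.23), with 1890 to 2376 in WT, 2137 to 2439 in HZ and 2338 to 2516 in KO. In the other lists, markers at an unadjusted p under 0.05 in KO against WT (limma) were likewise counted beside the 8.15% of all genes. They were 3 of 10 for interneurons (1 higher, 2 lower) and 2 of 7 for excitatory neurons (1 higher, 1 lower). Neuronal markers gave 2 of 9 (2 higher) and the oligodendrocyte lineage 2 of 7 (2 lower). Microglia gave 1 of 4 (lower), progenitors 1 of 7 (higher) and endothelial and mural cells 0 of 8. The part of these cell markers in the presynaptic readings was not tested.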

How the data were processed

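Per the labels, RNA of 9 mice was amplified through a double round of cDNA synthesis and hybridised to 1 Affymetrix array each. The intensities deposited by the authors are linear, 1 per probe set. The submitters' processing notes name MAS5 and Expression Console; their versions and settings are not given in the labels. Every array had a trimmed mean of 500.2 (highest and lowest 2% left out), so the deposited intensities were already scaled.

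Control probe sets (64 of 22690) were left out, the 60% with the highest mean log2 signal were kept (13576), and log2(intensity + 16) was fitted with limma 3.58.1 in R 4.3.3 on all 9 arrays with genotype as the only term and an intensity trend (6 residual and 6.94 prior degrees of freedom). Tests were 2-sided with Benjamini-Hochberg adjustment over all kept probe sets and a threshold of 0.05. The added 16 makes a fold change of a dim probe set too small. Where several kept probe sets carry a symbol of the platform annotation, the one with the highest mean log2 signal stood for the gene, and 691 probe sets listing more than 1 symbol were left unnamed. Members below the filter were fitted without it.

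Named in full were Gap43, members with an unadjusted p under 0.05 and at least the 4 of smallest p in each comparison, members whose probe sets differ in sign for KO against WT, and 1 or more standing members of each role; of the further presynaptic list, the 3 of smallest p in each comparison. Members and lists were chosen with earlier results of these data known. The procedure was also run on simulated data with independent normal noise and no array effects, unlike these arrays. Its outcome is not reported here and carries no weight for the results above. Alternatives were the filter, the pseudocount, quantile or median scaling, the trend, array weights, a replicate block, the Gapdh 3′/5′ ratio, the average of a gene's probe sets, and leaving out each array.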

Additional observations from a re-analysis of the deposited data

How the results depend on the processing

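No member passed the adjusted threshold in any of the 20 other settings. The smallest adjusted p of a member there was 0.244 (limma with array weights). Each of the member changes with the smallest p kept its sign in every setting run (Rab3c and Syt1 were not tested under the stricter filter). These changes were picked for small p on the same arrays, so a kept sign is no independent support. Of all 33 members, up to 10 turned sign, in KO against HZ without KO 2 (main changes up to 0.07 in size). With array weights 8 turned in HZ against WT (main changes up to 0.26 in size). The number of probe sets past the threshold was 0 without the filter or without the intensity trend in KO against WT and KO against HZ. In KO against HZ it was also 0 with quantile normalization, with arrays set to 1 median or with the Gapdh ratio as a term. Array weights gave 5 in KO against WT and 3 in HZ against WT. Leaving out 1 array gave 0 to 2 in each comparison. The members at an unadjusted p under 0.05 in KO against WT were 1 with the stricter filter (8.53% of all genes), 1 with averaged probe sets (8.56%) and 5 with the Gapdh ratio as a term (8.82%). With 1 array left out they were 1 to 5 in KO against WT, 1 to 3 in HZ against WT and 1 to 4 in KO against HZ, where the share of all genes ran from 5.29% to 10.4%, 4.6% to 8.27% and 6.09% to 9.02%. The cause of these moves was not tested.

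Titles share replicate numbers between genotypes. Deviations of same-numbered arrays correlated at -0.26 to 0.11, and those of differently numbered arrays at -0.15 to 0.20. With 3 arrays a genotype these values cannot exclude a pairing of the animals. The main fit did not use the numbers. With the replicate number as a block, 1 member was at an unadjusted p under 0.05 in HZ against WT (5.29% of all genes) and 2 probe sets passed in KO against HZ. No depth is defined for arrays, and the number of arrays and the signal of dim probe sets limit what could be seen.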
